A study of Mus musculus with 44 samples.

Results

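Oxidative phosphorylation (OXPHOS) is the pathway by which mitochondria make ATP. Complexes I to IV of the respiratory chain pass electrons from NADH and succinate to oxygen and pump protons across the inner membrane (complex II moves electrons only), and complex V, the ATP synthase, lets the protons flow back and makes ATP. Most subunits are encoded in the nucleus, translated on cytosolic ribosomes and imported, and neurons depend heavily on the pathway to pay for ion pumping and synaptic transmission.

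The genes described here are the 79 rows, of 8203 in the deposited table, whose symbol names a nuclear-encoded OXPHOS subunit: the Nduf genes of complex I (38, assembly factors left out), Sdha to Sdhd of complex II (4), the Uqcr genes and Cyc1 of complex III (9), Cox4 to Cox8 of complex IV (11) and the Atp5 genes of complex V (17). Membership rests on the symbol alone and used no measured value. Some symbols fit the name better than the biology. Ndufab1-ps is a processed pseudogene whose reads can be shared with Ndufab1, Atp5s and Atp5sl code for factors that are not ATP synthase subunits, Cox7a2l joins complexes III and IV into supercomplexes, and Ndufa4 is now counted with complex IV. The other 78 rows are annotated as protein-coding genes.

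The RNA came from Crh-TRAP mice, the first-generation offspring of a Crh-Cre line and a Rosa26 fs-TRAP line, heterozygous for both transgenes. In these mice Cre driven by the Crh promoter switches on an eGFP-tagged ribosomal protein L10a, so that ribosome-bound mRNA of corticotropin-releasing hormone (Crh) neurons can be pulled down from tissue punched around the central amygdala. Each of the 44 samples was 1 mouse of 10 to 16 weeks. Tone-alone mice (TA; 6 females, 10 males) heard tones with the shock generator off, fear-conditioned mice (FC; 6 females, 6 males) received 5 tone-shock pairings, and extinction mice (EXT; 6 females, 10 males) were conditioned in the same way and on the next day heard 30 tones without shock in another context. All were killed 2 h after their last session, females without regard to estrous cycle.

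Values are log2 CPM, reads scaled to a common library total on the log2 scale, and whole reads could be recovered from every one of them. Library sizes, the totals by which the values were scaled, ran from 12802113 to 20440351. They are not plain read counts: in animal 44 the rows held 13106872 reads against a library size of 12802113. No OXPHOS gene had fewer than 81 reads in any mouse. The mice fall into 5 labelled batches. Batches 1, 2 and 5 hold all 3 groups, whereas batch 3 (5 mice) and batch 4 (1 mouse) hold only EXT mice. The fits below include batch and sex, so they set EXT directly against the other groups only in the 10 EXT mice of batches 1, 2 and 5. The EXT mice of batch 3, of both sexes, still enter the sex term and the estimate of the spread. Crh itself was measured in every mouse (3.15 to 7.17 log2 CPM over the 3 groups), as were the GABA-synthesis genes Gad1 and Gad2. Of the marker lists, 0 of 8 microglial and 0 of 6 endothelial genes were among the rows, while all 9 astrocyte markers and 8 of 9 oligodendrocyte markers were. So were 4 of 8 glutamatergic and 4 of 12 choroid plexus markers. The choroid plexus markers varied widely, summing to 187 to 27465 CPM in TA, 673 to 19373 in FC and 186 to 51048 in EXT mice. The study states that genes above 4 CPM in every sample were kept. Not every value meets this: the lowest row of TA animal 10 held 29 reads at a library size of 20440351. Because low genes were filtered out, a missing row does not show that a gene was absent.

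The upstream sequences of the genes that lead the comparisons below are shown first, because the nuclear OXPHOS genes are scattered over the genome and are known to be linked by shared promoter motifs. RefSeq promoters (GRCm38.p6) were matched by symbol for 63 of the 79 genes, and motifs were searched on both strands of the 250 bases before the start. For OXPHOS genes with several promoters the one nearest the annotated start was used, and for other genes the first listed. The percentages over the table's genes and over all genes include the OXPHOS genes. The stretches below are printed 5′ to 3′ on the gene's strand, up to the first base of the annotated gene, with motif matches in capitals. Cox7c and Cox6a1 had the smallest p-values of complex IV in EXT vs. TA, Uqcrh that of complex III, and Sdha was the complex II gene with the smallest p, in the opposite direction.
Cox7c (chr13:86046905-86047045, minus strand): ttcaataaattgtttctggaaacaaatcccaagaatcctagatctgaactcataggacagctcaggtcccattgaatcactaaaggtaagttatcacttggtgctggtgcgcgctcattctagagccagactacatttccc
Cox6a1 (chr5:115348982-115349208, minus strand): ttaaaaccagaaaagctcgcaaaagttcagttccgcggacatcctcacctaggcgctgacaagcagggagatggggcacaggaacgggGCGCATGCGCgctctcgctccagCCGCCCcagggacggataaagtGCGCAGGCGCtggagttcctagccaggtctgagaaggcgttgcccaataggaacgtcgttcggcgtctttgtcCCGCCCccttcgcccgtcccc
Uqcrh (chr4:116075072-116075320, minus strand): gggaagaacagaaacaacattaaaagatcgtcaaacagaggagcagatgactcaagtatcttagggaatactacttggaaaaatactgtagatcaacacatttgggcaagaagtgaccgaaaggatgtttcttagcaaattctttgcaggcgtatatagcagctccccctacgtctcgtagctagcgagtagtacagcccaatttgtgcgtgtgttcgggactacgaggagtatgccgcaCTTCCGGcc
Sdha (chr13:74350281-74350490, minus strand): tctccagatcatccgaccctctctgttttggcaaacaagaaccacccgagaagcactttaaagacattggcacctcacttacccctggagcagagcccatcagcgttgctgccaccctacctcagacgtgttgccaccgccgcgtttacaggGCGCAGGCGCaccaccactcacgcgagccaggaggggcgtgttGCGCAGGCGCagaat

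The runs of capitals with alternating G and C in Cox6a1 and Sdha mark matches on either strand to the site of nuclear respiratory factor 1 (NRF1), a known activator of respiratory chain genes. A further match in Sdha, and an ETS match in Cox6a1, lie inside the annotated gene and are not printed. Within the 250 bases it was found in 12 of the 63 OXPHOS promoters (19%), against 9.75% of the 6393 genes of the table with a promoter and 3.86% of all 27025 genes. The 12 belonged to all complexes except complex III and included Ndufa8, Sdhd and Atp5k. The ETS-type motif CCGGAAG, bound by GABP and marked in Uqcrh, stood in 11 (17.5%, against 14.9% of the table's genes). GGGCGG, the SP1-type box also marked in Cox6a1, stood in 33.3% of the OXPHOS promoters and in 62.2% of the table's genes, and the median GC content of the OXPHOS windows was 56.4% against 60.8%. TGACGTCA, the cyclic AMP response element, was found in 4 (Ndufa10, Ndufb2, Uqcrfs1 and Ndufa11; 6.35% against 3.19%), TCAAGGTCA, an ERR-type site, in 1 (Atp5g3), and the YY1 motif in 0. The Cox7c window held none of the 6 motifs. A match describes the letters only.

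OXPHOS transcripts were abundant. Summed over the 79 genes they came to 2.52% to 6.17% of the library size of a mouse, the total by which its values were scaled. The group medians were 4.32% (TA), 3.98% (FC) and 4.44% (EXT). Levels of different genes are compared here per kilobase of transcript (log2 CPM per kb, mean over 44 mice). On that scale Ndufa4 (11.32), Cox8a (11.19), a small subunit of cytochrome c oxidase, and Ndufa1 (10.80), a small membrane subunit of complex I, stood highest. The lowest were the pseudogene Ndufab1-ps (4.16), Atp5sl (5.03) and Atp5s (5.61). Among the catalytic subunits the ATP synthase beta subunit gene Atp5b (10.36) was above the alpha subunit gene Atp5a1 (8.60). Ndufs1, which holds iron-sulfur clusters of complex I, was low (5.90), as was Sdhc, a membrane anchor of complex II (5.92), whereas the iron-sulfur subunit gene Sdhb (9.04) exceeded the flavoprotein gene Sdha (8.23).

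The first question was how much of the variation in these genes went with the batch label. The mean log2 CPM of the 79 genes was 8.08 ± 0.25 (SD) in the 11 mice of batch 1, 8.79 ± 0.22 in the 10 of batch 2, 8.56 ± 0.23 in the 5 of batch 3, 8.52 in the mouse of batch 4 and 8.92 ± 0.16 in the 17 of batch 5. The highest mouse of batch 1 was at 8.58 and the lowest of batch 5 at 8.70, so these 2 batches did not overlap. With group and sex in the fit, 74 of the 79 genes differed between batches at an adjusted p under 0.05 (limma F test), and 72.8% of all genes did (75.1% at an unadjusted p under 0.05). The 5 that did not were Ndufa13, Ndufa1, Ndufa5, Atp5b and Ndufs1.

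**Figure D1:**
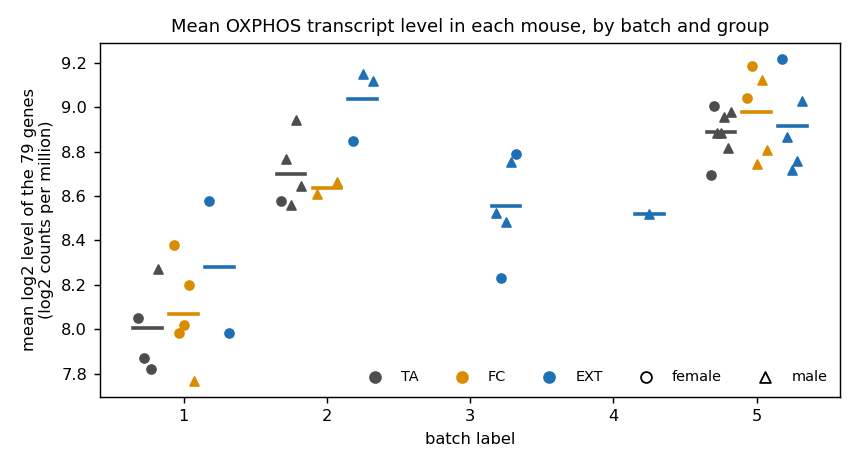
Mean log2 CPM of the 79 OXPHOS genes in each mouse (y axis) by batch label (x axis); colours mark TA, FC and EXT, circles females, triangles males, and lines the mean of each group in a batch. Batch 1 lies lowest in each group, batch 5 has the highest mean in TA and FC and batch 2 in EXT (9.04 against 8.92), and batches 3 and 4 hold EXT mice only.

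The batch difference was not shared evenly. Cox7b, an accessory subunit of cytochrome c oxidase and the gene with the largest SD over mice (0.99), averaged 7.48 log2 CPM in batch 1 and 9.72 in batch 5. Uqcrh, the hinge protein of complex III, averaged 7.60 and 9.53. Atp5b had the smallest SD (0.21) and averaged 11.36 and 11.29. Sdha went the other way, from 10.38 to 9.53. In all, 66 genes averaged higher in batch 5 than in batch 1 and 13 lower, with a median difference of 0.88. The same difference was 0.73 over the 647 other genes with transcripts under 1 kb and -0.17 over the 5517 other genes of 2 kb or more. OXPHOS transcripts are short, with a median of 758 bases against 2766 over the table (GENCODE principal transcripts).

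The comparison of EXT with TA sets mice that were conditioned and then extinguished a day later against mice that heard tones without shock, so it covers conditioning and extinction together. No OXPHOS gene passed an adjusted p of 0.05 (smallest 0.143), and 0.0244% of all genes did (2 genes). At an unadjusted p under 0.05, called nominal from here on, 39 of the 79 genes were higher and 4 lower in EXT, against 10.2% of all genes higher and 11% lower. The median log2 fold change was 0.22 over the OXPHOS genes and 0.01 over all genes, and 68 of 79 OXPHOS genes had a positive value. Leaving out 1 EXT mouse of batch 3 (animal 23) let 10 OXPHOS genes and 472 of all genes (5.75%) pass the adjusted p, and leaving out 1 EXT mouse of batch 1 (animal 26) or of batch 2 (animal 52) reduced the 43 nominal genes to 24 and 26. In bulk RNA of this kind, fewer cells of a type and less RNA per cell cannot be told apart.

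**Figure D2:**
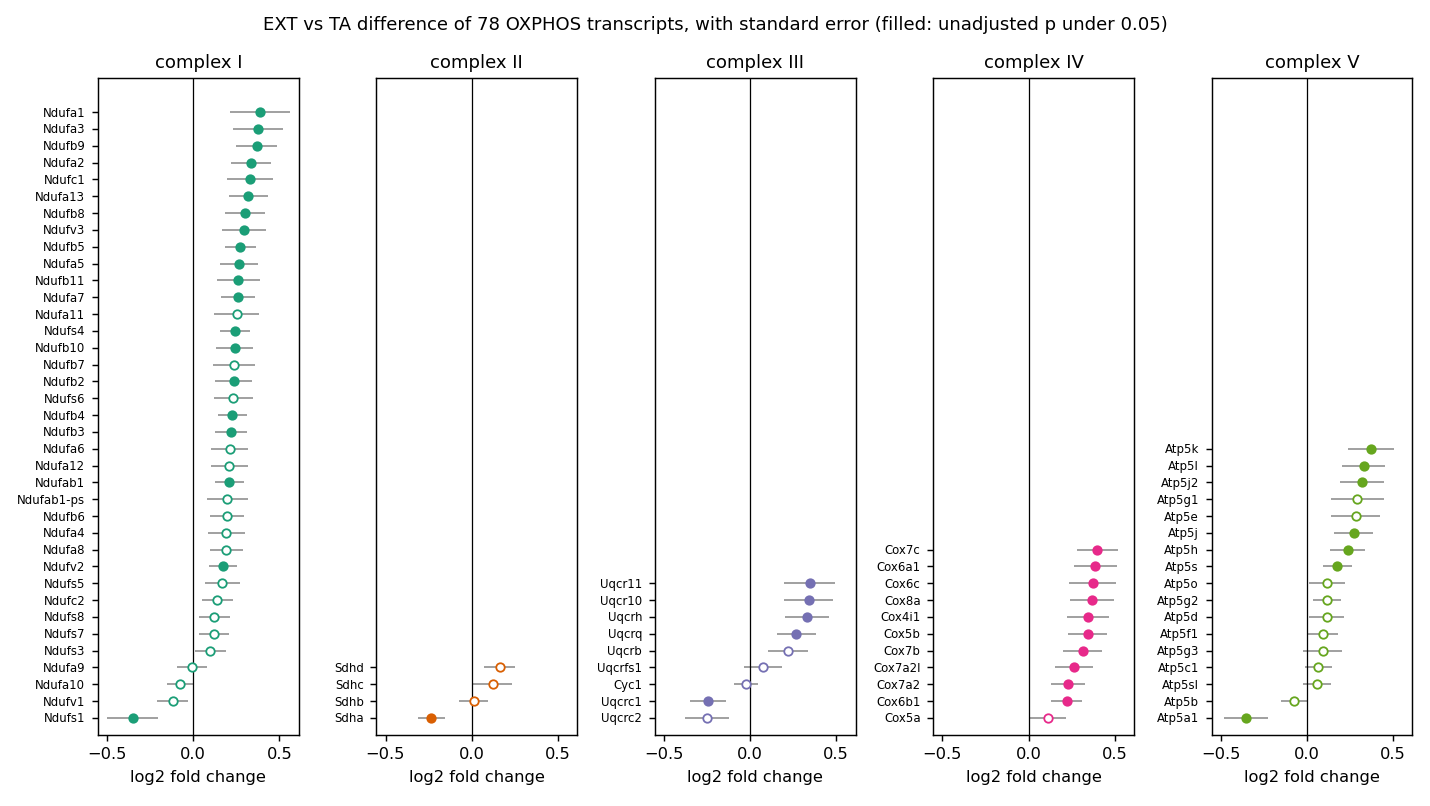
Log2 fold change of EXT vs. TA (x axis) for 78 of the 79 genes, by complex, with the standard error as a line; filled points have an unadjusted p under 0.05. All 11 complex IV genes lie above 0, while Ndufs1, Sdha, Uqcrc1 and Atp5a1 are the filled points below 0.

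Complex IV, cytochrome c oxidase, which hands the electrons to oxygen, held the most even pattern. All 11 of its genes were above 0 in EXT, 10 of them nominally, with a median log2 fold change of 0.34. Cox7c, a small membrane subunit, ranged from 6.85 over a median of 8.62 to 9.14 log2 CPM in TA mice and from 7.22 over 9.03 to 9.45 in EXT mice. The groups overlapped widely, and the mice of batch 1 were low in both. The fitted log2 fold change was 0.40 ± 0.12 (SE; adjusted p = 0.143).

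Cox8a, the most abundant gene of the complex, ran from 9.04 over a median of 10.38 to 10.73 in TA mice and from 9.46 over 10.95 to 11.18 in EXT mice, with a log2 fold change of 0.37 ± 0.13 (adjusted p = 0.149). Cox4i1, the isoform of subunit 4 that is laid down early in assembly, had medians of 10.32 in TA and 10.74 in EXT and a log2 fold change of 0.35 ± 0.12. For both genes the groups overlapped over most of their range. Cox5a, the assembly partner of Cox4i1, did not reach nominal significance, with medians of 7.99 and 7.85 and a log2 fold change of 0.11 ± 0.11.

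In complex I, which takes electrons from NADH, 19 of 38 genes were nominally higher and 1 was lower, with a median log2 fold change of 0.22. The smallest p was that of Ndufb9, an accessory subunit of the membrane arm. It ran from 8.20 over a median of 9.31 to 9.68 in TA mice and from 8.64 over 9.72 to 10.57 in EXT mice. The EXT mice above the TA range came from batches 2, 3, 4 and 5, and the fitted value was 0.37 ± 0.12 (adjusted p = 0.144). Ndufa4, the most abundant, had medians of 10.42 in TA and 10.31 in EXT and a fitted log2 fold change of 0.19 ± 0.11.

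The core subunits, which carry out the electron transfer from NADH to ubiquinone, held values in both directions. Ndufs1 ran from 6.97 over 7.36 to 8.26 in TA mice and from 6.22 over 7.08 to 8.14 in EXT mice, overlapping the TA mice but reaching lower, with a log2 fold change of -0.35 ± 0.15 (adjusted p = 0.182). It was the nominally lower gene of the complex. Ndufv1, which binds NADH, had medians of 8.71 and 8.43 and a log2 fold change of -0.12 ± 0.09. Ndufs7, which passes electrons to ubiquinone, had medians of 9.26 and 9.12 and a fitted value of 0.12 ± 0.09. Of the 7 core subunit genes, 4 were above 0, 1 was nominally higher (Ndufv2) and 1 lower, with a median of 0.10.

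Complex II, which links the chain to the tricarboxylic acid (TCA) cycle, differed in the opposite direction in its largest subunit. Sdha ran from 9.29 over a median of 9.66 to 10.79 in TA mice and from 9.24 over 9.58 to 10.37 in EXT mice, with the TA mice of batch 1 at the top. The log2 fold change was -0.23 ± 0.08 (adjusted p = 0.149). Sdhb, with medians of 9.41 and 9.21, had a fitted value of 0.01 ± 0.08, and the median log2 fold change of the complex was 0.07.

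Complex III passes electrons from ubiquinol to cytochrome c. Of its 9 genes 4 were nominally higher, all of them small accessory subunits, and the core protein gene Uqcrc1 was lower. Uqcrh ran from 7.06 over a median of 9.19 to 9.68 in TA mice and from 7.59 over 9.25 to 10.03 in EXT mice. The medians were close and the log2 fold change within batches was 0.33 ± 0.13 (adjusted p = 0.159). Uqcr11, the most abundant gene of the complex, had medians of 9.78 and 9.94 and a log2 fold change of 0.35 ± 0.15. The subunits that carry the redox groups showed little difference: the Rieske iron-sulfur protein gene Uqcrfs1 had 0.08 ± 0.11 and the cytochrome c1 gene Cyc1 had -0.02 ± 0.07.

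In complex V 6 of 17 genes were nominally higher and 1 lower, with a median log2 fold change of 0.12. Atp5k, the e subunit of the membrane part, ran from 6.54 over a median of 8.02 to 8.51 in TA mice and from 7.10 over 8.37 to 8.73 in EXT mice. The fitted difference was 0.37 ± 0.13 (adjusted p = 0.149). Atp5a1 ran from 9.95 over 10.18 to 10.35 in TA mice and from 8.73 over 9.59 to 10.50 in EXT mice, with a fitted difference of -0.35 ± 0.13 (adjusted p = 0.151). The EXT mice spread far below the tight TA range, the lowest being mice of batches 3 and 4, which hold no TA mice to compare them with. Atp5b, which carries the catalytic sites and has the highest log2 CPM of the complex before length is taken into account, had medians of 11.29 in TA and 11.21 in EXT and a log2 fold change of -0.07 ± 0.07.

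**Figure D3:**
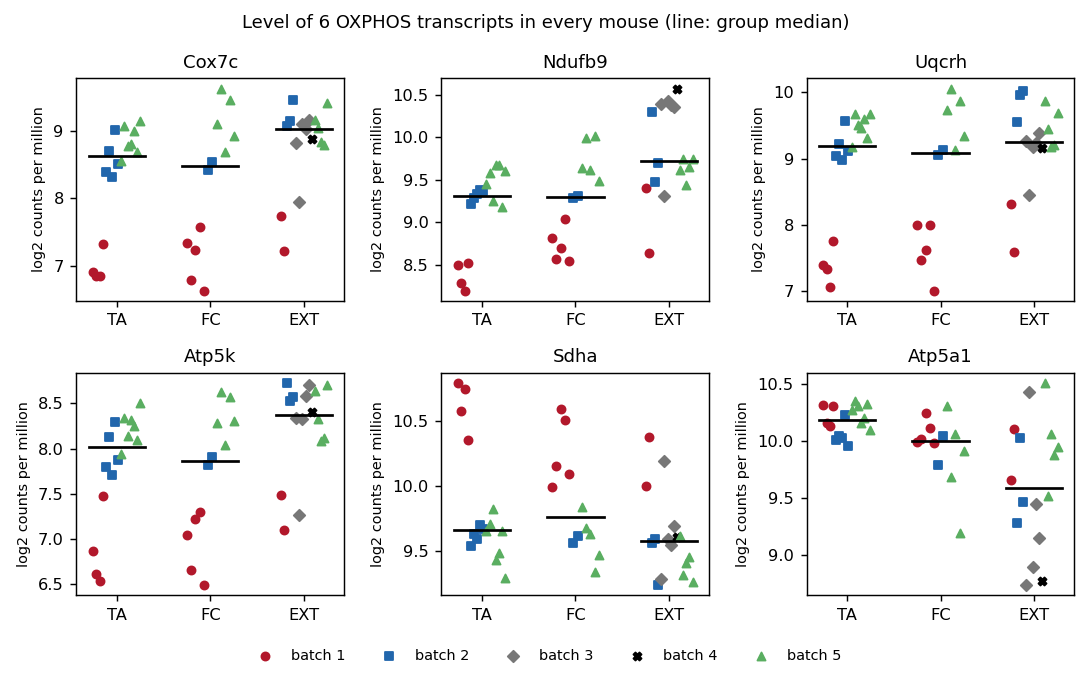
Log2 CPM (y axis) of Cox7c, Ndufb9, Uqcrh, Atp5k, Sdha and Atp5a1 in every TA, FC and EXT mouse (x axis), with colour and shape for the batch and a line for the group median. The batch 1 mice lie low for the first 4 genes and high for Sdha, and the EXT mice of Atp5a1 reach down to 8.73 while no TA mouse is below 9.95.

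The direction was that of batches 1 and 2 more than that of batch 5. In batch 1 (2 EXT, 4 TA mice) the median difference of group means over the 79 genes was 0.32, in batch 2 (3 EXT, 5 TA) 0.34 and in batch 5 (5 EXT, 7 TA) 0.04, with 70, 67 and 56 genes above 0. For complex IV the medians were 0.46, 0.59 and 0.08. The 2 EXT mice of batch 1, both female, differed in their mean over the 79 genes. Animal 26 was at 8.58, above the TA mice of that batch (7.82 to 8.27, 3 of 4 female), and animal 28 at 7.98, among them. In batch 2 all EXT mice lay above all TA mice in 25 of 79 genes, against 8.66% of all genes. That count was 3 in batch 1 (11% of all genes) and 0 in batch 5 (0.317%). All EXT mice lay below all TA mice in 3 genes in batch 1 (Ndufs1, Uqcrc2 and Atp5a1; 9.05% of all genes), 1 in batch 2 (9.59%) and 0 in batch 5 (0.341%). In fits within 1 batch, 11 genes were nominally higher in batch 1 (6.47% of all genes), 41 in batch 2 (13.8%) and 1 in batch 5 (3.63%), and 0 passed the adjusted p in each.

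Cox7c read 8.32, 8.39, 8.51, 8.70 and 9.00 in the TA mice of batch 2 and 9.07, 9.15 and 9.45 in the EXT mice, without overlap. In batch 5 its TA mice ran from 8.56 to 9.14 and its EXT mice from 8.79 to 9.40, overlapping for most of the range. Atp5a1 was lower in EXT by group mean in each of these batches, by -0.35, -0.46 and -0.26. In a test of whether the EXT vs. TA difference itself varied between the 3 batches, 0 of 79 genes passed an adjusted p of 0.05 (smallest 0.054, for Ndufa1; 1.35% of all genes passed) and 17 reached an unadjusted p under 0.05 (21.6% of all genes did).

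**Figure D4:**
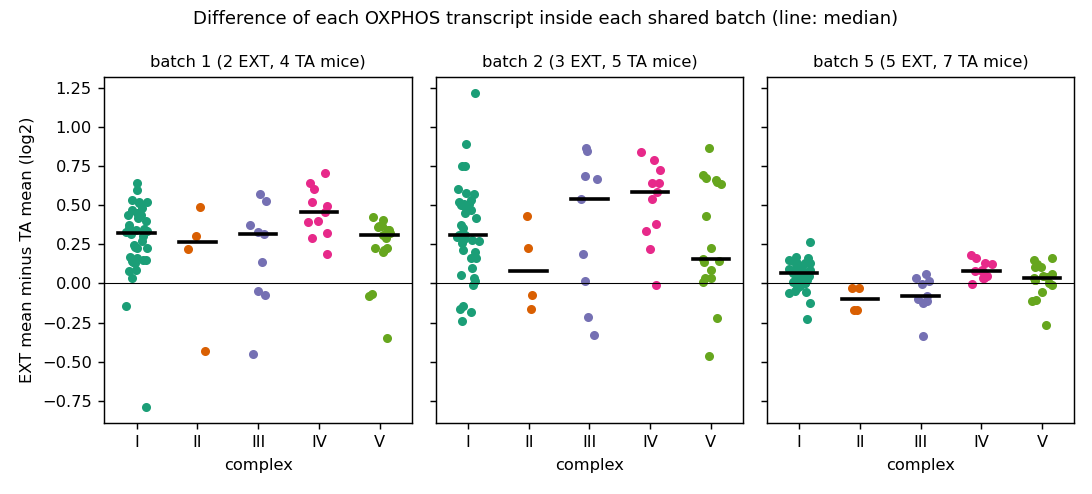
Mean of EXT minus mean of TA mice (log2, y axis) for each of the 79 genes in batches 1, 2 and 5, by complex (x axis), with a line at the median. The complex IV medians are 0.46, 0.59 and 0.08.

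The size of the difference moved with the length of the transcript. All 50 OXPHOS genes under 1 kb had a positive EXT vs. TA value (median 0.26), 16 of the 23 from 1 to 2 kb did (median 0.10) and 2 of the 6 of 2 kb or more did (median -0.15). Genes outside the pathway showed the same order: medians of 0.20 over 647 genes under 1 kb, of which 41.1% were nominally higher, 0.06 over 1923 genes from 1 to 2 kb and -0.04 over 5517 longer ones. With the trend on length taken out of every sample, fitted on the genes outside the pathway, the OXPHOS median became 0.03, and 7 genes were nominally higher (6.98% of all genes) and 5 lower (8.78%). At an adjusted p 0 passed, and 0.0245% of all genes did. Complex IV kept a median of 0.16 with 10 of 11 genes above 0 and 2 nominally higher, and Atp5a1 had -0.32 ± 0.12.

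**Figure D5:**
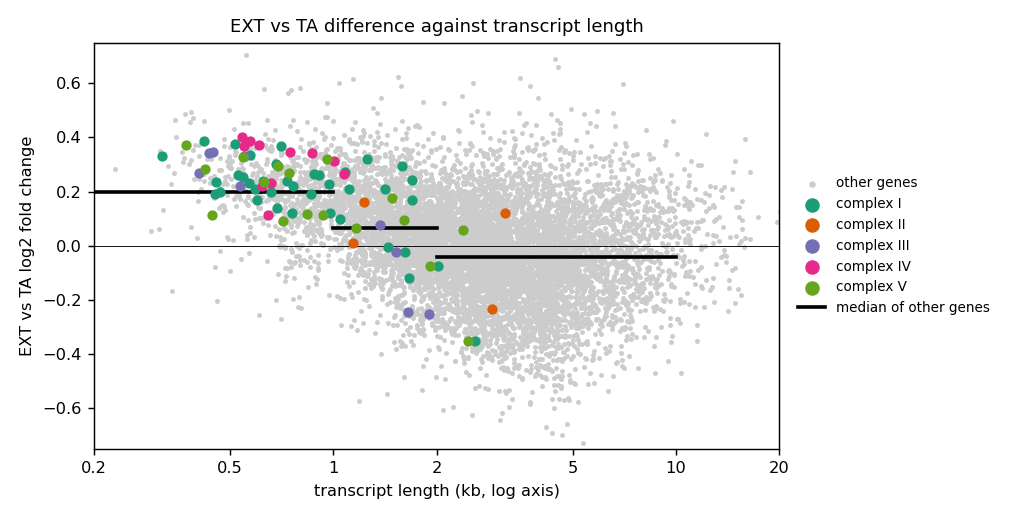
EXT vs. TA log2 fold change (y axis) against transcript length in kb (x axis, log scale) for the OXPHOS genes, coloured by complex, and for 8087 other genes in grey, 10 of which lie outside the axes; black lines are the medians of the other genes under 1 kb, from 1 to 2 kb and of 2 kb or more. The OXPHOS genes lie mostly at the short end, where other genes also lie above 0.

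Library size moved with the group as well. This size, a scaling total and not a plain read count, was 12802113 to 17805609 in EXT and 14649837 to 20440351 in TA mice. In batch 2 the EXT sizes (14867706 to 15660597) were all smaller than the TA sizes (16251162 to 18929909). By reads counted in the rows the groups of batch 2 overlapped, with 16090361 in EXT animal 51 and 15974077 in TA animal 31. With log2 library size in the fit the OXPHOS median was 0.16 and 71 of 79 genes were above 0, but only 2 were nominally higher (1.79% of all genes) and 0 lower (2.89%). Of the GABAergic markers 2 of 5 (Gad1 and Gad2) were nominally lower in EXT (11% of all genes) and 0 higher (10.2%), with Gad1 at a log2 fold change of -0.42 ± 0.14. No astrocyte (9), oligodendrocyte (8), glutamatergic (4) or choroid plexus (4) marker among the rows reached nominal significance in either direction. The part of library size, transcript length and the GABAergic markers in the OXPHOS differences was not tested.

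Which genes were called depended on the coding of batch. Batch as a number lets the EXT mice of batches 3 and 4 be compared directly with TA mice. In that fit 14 of 79 OXPHOS genes passed an adjusted p of 0.05 (21.4% of all genes did, 10.4% higher and 11% lower). Higher were Ndufb9, Cox6a1, Cox7a2l, Ndufb8, Cox8a, Ndufa3, Cox4i1, Atp5k and Ndufa5, and lower were Atp5a1, Uqcrc1, Uqcrc2, Ndufv1 and Ndufs1. The median log2 fold change was then 0.10, and all 4 complex II genes were below 0. With batches 3 and 4 left out, 5 passed (4.99% of all genes did, 2.15% higher and 2.84% lower), and these were Cox7c, Ndufb9, Ndufa2 and Cox6a1, higher, and Atp5a1, lower. Ndufb9, Cox6a1 and Atp5a1 were called in both. In batches 3 and 4 Ndufb9 read 9.31, 10.36, 10.38, 10.39, 10.43 and 10.57, above every TA mouse in all but 1.

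FC vs. TA asks what fear conditioning itself changed, with the same TA mice as controls. No OXPHOS gene passed an adjusted p of 0.05 (smallest 0.136; 0% of all genes passed). Nominally, 7 were higher (8.61% of all genes) and 2 lower (8.2%), and the median log2 fold change was 0.06, with 62 of 79 above 0. The sign of this median was not stable: it was -0.005 with a numeric batch, -0.029 without batch and -0.045 with the length trend removed.

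The smallest p was that of Atp5a1, which ran from 9.95 over a median of 10.18 to 10.35 in TA mice and from 9.19 over 10.00 to 10.31 in FC mice. Its log2 fold change was -0.27 ± 0.08 (adjusted p = 0.136), and the lowest FC mice came from batch 5. Ndufb9 (0.23 ± 0.08), the complex I assembly-critical accessory gene Ndufs4 (0.19 ± 0.07), Atp5s (0.19 ± 0.07) and Cox7a2l (0.22 ± 0.07) followed. Ndufb9 differed by 0.35, -0.02 and 0.26 between the FC and TA means of batches 1, 2 and 5. Cox5b, Ndufb5 and Ndufb8 were the other nominally higher genes and Ndufs1 the other lower one. Other genes under 1 kb had a median of 0.12 in this comparison, against 0.07 for the OXPHOS genes of that length. In these mice 6 of 9 astrocyte markers were nominally higher in FC (8.61% of all genes). Lower (8.2% of all genes) were 2 of 4 choroid plexus markers, 2 of 5 GABAergic markers (Gad1 -0.19, Gad2 -0.21) and 1 of 10 central amygdala markers (Pdyn -0.71). With a score of the choroid plexus markers in the fit, 19 OXPHOS genes were nominally higher (8.63% of all genes) and 1 lower (8.19%), and the median was 0.14 with 72 of 79 above 0. The part of the other markers was not tested.

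EXT vs. FC compares mice conditioned and then extinguished a day later with mice killed after conditioning. The groups thus also differ in time since the shocks, number of tones and context, which cannot be told apart from extinction. No OXPHOS gene passed at an adjusted p (smallest 0.975; 0% of all genes passed), and 0 were nominally higher (2.22% of all genes) or lower (1.97%). With limma on the same data and batch as a number, 13 were nominally higher (11% of all genes) and 3 lower (8.35%), and 0 passed the adjusted p. The median log2 fold change was 0.12, with 68 of 79 above 0, and with log2 library size in the fit it was 0.02, with 45 above 0. Uqcr11 had the smallest p, with FC mice from 7.96 over a median of 9.48 to 10.52 and EXT mice from 8.64 over 9.94 to 10.64. The groups overlapped for nearly their whole range and the log2 fold change was 0.31 ± 0.17. Atp5k (0.27 ± 0.16), Ndufa13 (0.22 ± 0.14), Atp5g1 (0.28 ± 0.17), one of the genes for the ring that turns in the ATP synthase, and Cox6a1 (0.26 ± 0.16) came next. The median standard error over the 79 genes was 0.14. Of the markers, 3 of 8 oligodendrocyte (median log2 fold change -0.54) and 2 of 9 astrocyte genes (-0.43) were nominally lower in EXT than in FC and 1 of 10 central amygdala genes was higher, and their part in the OXPHOS values was not tested.

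Females and males were compared over all 44 mice. No OXPHOS gene passed an adjusted p of 0.05 (0% of all genes), 5 were nominally higher in females (2.05% of all genes) and 0 lower (2.08%). The 5 were Sdha (0.22 ± 0.07), Atp5b (0.20 ± 0.07), Ndufv1 (0.16 ± 0.07), Ndufs1 (0.28 ± 0.12) and Uqcrc1 (0.20 ± 0.09), all subunits of the catalytic or core parts. Sex and batch were unevenly crossed, with 9 females among the 11 mice of batch 1. Without batch in the fit 7 genes were nominally higher (13.5% of all genes) and 41 lower in females (15.2%), 5 passed the adjusted p as higher and 11 as lower (16 in all, against 7.28% of all genes), and the median turned from 0.03 to -0.31.

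The EXT vs. TA difference was then compared between the sexes. No OXPHOS gene passed an adjusted p (smallest 0.709; 0% of all genes), 4 had a nominally larger value in females (2.71% of all genes) and 0 a smaller one (3.32%). The 4 were Uqcrc1, Atp5b, Uqcrfs1 and Cyc1. In all, 75 of the 79 genes had a larger fitted EXT vs. TA value in females. The median interaction value was 0.19, with a median standard error of 0.20, against a median of 0.03 over all genes. Uqcrc1 averaged 9.49 ± 0.22 (SD, 6 TA) and 9.39 ± 0.33 (6 EXT) in females and 9.40 ± 0.17 (10 TA) and 8.82 ± 0.36 (10 EXT) in males. Atp5b averaged 11.33 ± 0.12 and 11.46 ± 0.16 in females and 11.35 ± 0.13 and 11.14 ± 0.14 in males. These plain means include the EXT-only batches. The interaction coefficients with batch in the fit were 0.45 ± 0.18 and 0.31 ± 0.13, and the female and male EXT mice of batch 3 inform them too.

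The genes varied together from mouse to mouse. After group, batch and sex were removed, the median Pearson correlation over the 3081 pairs was 0.63, against -0.005 over all pairs of genes, a description over 44 mice whose values share depth and library preparation. Complex IV was the tightest (0.78), followed by complex I (0.68), V (0.51), III (0.41) and II (0.17). Atp5h, the d subunit of the ATP synthase stalk, followed the mean of the other genes most closely (0.97), with Uqcrq (0.97) and Uqcrh (0.95). The correlation of the OXPHOS mean with the mean of the 647 other genes under 1 kb was 0.76, and with the 5517 longer ones -0.50.

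A small set stood apart from the rest. The 7 genes with a correlation under 0.2 to the mean of the others were Sdha (-0.32), Atp5a1 (-0.23), Ndufs1 (-0.13), Uqcrc2 (-0.13), Atp5sl (0.06), Uqcrc1 (0.09) and Ndufv1 (0.15). All but Atp5sl code for core or catalytic subunits, and their transcripts of 1653 to 2900 bases are long for the pathway. Among themselves those 6 were positively correlated, for example Ndufs1 with Uqcrc2 (0.82) and with Sdha (0.78) and Atp5a1 with Uqcrc1 (0.77). The lowest of their pairs was Uqcrc1 with Sdha (0.21), and Atp5sl correlated negatively with Ndufs1 (-0.33).

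Other genes of the pathway were examined as lists. Of 45 OXPHOS assembly factor genes, 15 were nominally higher in EXT than in TA and 1 lower, against 10.2% and 11% of all genes. Their median log2 fold change was 0.15, and 0 passed the adjusted p (0.0244% of all genes). The smallest p-values were those of Uqcc3 (0.32 ± 0.10), needed for complex III assembly, and Cmc1 (0.30 ± 0.10), a complex IV assembly factor. Of 22 genes for electron carriers and coupling, 2 were higher and 1 lower, no more than the shares over all genes. They included Usmg5 (0.35 ± 0.11), a small ATP synthase subunit outside the symbol rule, and the mitochondrial creatine kinase gene Ckmt1 (-0.38 ± 0.14).

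The TCA cycle genes, which feed NADH and succinate to the chain, leaned the other way. Of 17, 0 were nominally higher (10.2% of all genes) and 6 lower (11%), with a median of -0.14. Pdha1 (-0.29 ± 0.11) and Dld (-0.31 ± 0.12), both of the dehydrogenase complexes, had the smallest p. Their median transcript length was 2544 bases. Of 10 regulators of mitochondrial biogenesis, 0 differed nominally in either direction (21.1% of all genes did), with Polg (-0.15 ± 0.08) and Yy1 (0.16 ± 0.09) at the smallest p. The 6 mitochondrially encoded subunits among the rows were all above 0 with a median of 0.57 and 0 were nominal. They varied widely between mice, and their summed level ran from 74.4 to 2882 CPM in TA mice and from 214 to 30596 CPM in EXT mice. In FC vs. TA the same lists gave 7 higher and 2 lower of the 45 assembly factors and 0 higher and 1 lower of the 17 TCA cycle genes. Over all genes 8.61% were higher and 8.2% lower there.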

How the data were processed

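The authors trimmed the reads with Trimmomatic 0.36, aligned them with STAR to GRCm38 and deposited voom-normalized log2 CPM values. Their stated filter kept genes above 4 CPM in every sample, which not every deposited value meets. How reads were counted per gene, and what became of reads shared with pseudogenes, is not given in the sources used here. Libraries were amplified with a SMARTer kit and read as paired 50-base reads. Whole reads were recovered from all 360932 values (tolerance 0.1 read), which gave the library sizes. Each comparison was fitted with limma 3.58.1 (R 4.3.3) on the deposited values of its groups over all 8203 rows, with batch as categories and sex, two-sided, with Benjamini-Hochberg adjustment. Lengths are the lower median over GENCODE M21 principal transcripts. The fits and the read recovery were tested on simulated data.

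The genes named are those with the smallest p in each complex and comparison, that with the highest mean log2 CPM in each complex, 11 catalytic subunits, and the highest and lowest SD. Other genes named were chosen after their values were seen. The members, lists and tests were chosen with earlier results of these data known. Each sample is 1 mouse. The values of 1 gene are not reported here.

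Alternatives were other codings of batch, added covariates, normalizations, filters and left-out mice. Those with the length trend removed, within 1 batch, with the score of mitochondrial transcripts, with batch as a number beside library size, and the test of EXT by batch were chosen after seeing the data.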

Additional observations from a re-analysis of the deposited data

How the results depend on the processing

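In EXT vs. TA, 43 OXPHOS genes were nominal (39 higher, 4 lower, against 21.1% of all genes) and 0 passed the adjusted p (0.0244%). With batch as a number 24 were nominal (16 higher, 8 lower, against 37.8% of all genes) and 14 passed the adjusted p (21.4%). Without batch 24 were nominal (16 higher, 8 lower, against 36.3%) and 11 passed (19.7%). Without batches 3 and 4, 5 passed (4.99%). Leaving out animals 22, 25, 44 and 53 gave the same values, because a mouse left alone in its batch is fitted by its own batch term. Nominal genes numbered 18 with array weights (15.7% of all genes) and 12 with the length trend removed (15.8%). They numbered 2 with log2 library size (4.68%) and 2 with library size and batch as a number (5.47%). Batch 1 alone gave 13 (12.5%, median log2 fold change 0.45) and batch 5 alone 2 (8.77%). With the length trend removed and batch as a number, 11 passed the adjusted p (4 higher, 7 lower; 22% of all genes) and the median was -0.0674. Leaving out 1 mouse at a time gave 24 to 55 nominal genes (lowest without animal 26, highest without animal 58), 0 to 10 at the adjusted p and medians of 0.15 to 0.26.

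In FC vs. TA 9 genes were nominal (16.8% of all genes). The count became 1 with batch as a number (10.4%, median -0.00495) and 1 without batch (6.73%, median -0.029). It was 2 with batch as a number and library size (8.4%, median -0.043). With the length trend removed and batch as a number it was 2 (9.12%, median -0.056). The choroid plexus score gave 20 (16.8% of all genes). Batches 1, 2 and 5 alone gave 5 (10.2%), 0 (4.25%, median -0.095) and 2 (13.6%). With the length trend removed the median was -0.045. In EXT vs. FC, 0 nominal genes (4.19% of all genes) became 16 with batch as a number (19.3%), 11 without batch (18.1%) and 8 with array weights (10.7%). Without batches 3 and 4 there was 1 (5.16%), and leaving out animals 22, 25, 44 and 53 gave the same values. The length trend removed and batch as a number gave 14 (20% of all genes, median -0.00478). Leaving out 1 mouse at a time in EXT vs. FC gave 0 to 3. Its median was -0.028 with batch as a number and library size. Between females and males, 5 nominal genes (4.13% of all genes) became 19 with batch as a number (12.3%, median -0.13). Without batch there were 48 (28.7%), with 16 past the adjusted p (7.28%) and a median of -0.31. The interaction of EXT and sex gave 2 without batch (3.35% of all genes). The cause was not tested for any of these.

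Single genes that changed sign in EXT vs. TA are given here as log2 fold changes. With batch as a number, Ndufs7 had -0.127, Sdhb -0.144, Uqcrfs1 -0.0779 and Cox5a -0.0723. Without batch they had -0.122, -0.126, -0.0562 and -0.0511. With batch as a number and library size, Ndufa4 had -0.0632, Ndufs7 -0.124, Sdhb -0.139, Uqcrfs1 -0.00134 and Cox5a -0.0853. With the length trend removed, they had -0.0535, -0.0589, -0.104, -0.00795 and -0.0907, and with batch as a number as well -0.294, -0.284, -0.207, -0.107 and -0.270. Sdhb had -0.0207 with quantile normalization and -0.0223 with array weights, and Uqcrfs1 -0.0287 with array weights. In batch 5 alone Uqcr11 had -0.0686, Sdhb -0.0186, Uqcrfs1 -0.112 and Cox7b -0.00146, and in batch 2 alone Sdhb had -0.0429. Cyc1 turned positive with log2 library size (0.00468), in batch 1 alone (0.216) and in batch 2 alone (0.0179). In FC vs. TA Ndufb9 had -0.0432 and Cox7a2l -0.0622 in batch 2 alone, and in EXT vs. FC Ndufa13 had -0.0411 with batch as a number and library size. No paired analysis was possible because the labels give no replicate numbers shared between groups. The EXT mice of batches 3 and 4 cannot be told apart from their batches. The lowest OXPHOS count was 81 reads, and with 10 EXT mice in shared batches few mice inform the EXT comparisons.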
